A study of Mus musculus with 6 samples.

Results

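The chitinase-like proteins of the mouse were followed through 4 genes, Chil1, Chil3, Chil4 and Chid1, in livers injured by ischemia and reperfusion (I/R). The genes were chosen by name, and they were selected with their measured values in this comparison known, so their changes are given here as a description with no test. All 4 genes had a row in the deposited count table, which holds 15454 rows, and all 4 were among the 12411 genes left by a filter on low counts. Liver RNA came from 6 samples of male mice of the C57BL/6 background, 8 to 10 weeks old, in which 75% of the liver had been made ischemic at body temperature and then reperfused. Vehicle solution was given to 3 of them (I/R) and ginsenoside Rk2, a saponin from ginseng, to the other 3 (I/R+Rk2), once 2 days before surgery and once as perfusion was restored. Both groups were injured, no sham-operated liver was analysed here, and each library came from 1 liver sample. Total counts ran from 16809613 to 35618074 per library.

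The chitinase-like proteins belong to the glycoside hydrolase 18 (GH18) family, whose true chitinases cut chitin, but most of them have lost the catalytic residue and act as secreted lectins. Chil3 (Ym1) and Chil4 (Ym2) are made by rodent myeloid cells and by epithelium during type 2 immunity, and Chil3 is a textbook transcript of alternatively activated macrophages that neutrophils and their precursors also carry. Chil1, the mouse counterpart of human YKL-40, is released by macrophages, neutrophils and stressed tissue cells and signals through several receptors. Chid1 is a more distant relative, broadly expressed, whose protein binds the scavenger receptor stabilin-1 and is sorted to lysosomes.

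On the GRCm38 genome with GENCODE M21 annotation, Chil3 lies on the minus strand at chr3:106147554-106167564 and Chil4 on the same strand at chr3:106201490-106219507, so that 33925 bases separate them. Each gene has 11 exons in its reference transcript. Chil1 lies on the plus strand at chr1:134182176-134190181 and Chid1 on the minus strand at chr7:141493136-141539857, where 292 exonic bases are also covered by Tspan4 on the opposite strand. All 4 genes are annotated as protein coding. The reference transcripts of Chil3 and Chil4, both 1539 bases long, were 94.3% identical, while Chil3 and Chil1 transcripts were 49.9% identical over their alignment. Reads that cover a differing base can be told apart. The stretch of exon 6 shown here was chosen as the gap-free 60 coding bases with the most differences, so it is not typical. It is coding bases 500 to 559 of each gene, chr3:106155714-106155773 for Chil3 and chr3:106206041-106206100 for Chil4, read on the minus strand from 5′ to 3′, and capitals mark the 10 bases that differ:
Chil3 exon 6: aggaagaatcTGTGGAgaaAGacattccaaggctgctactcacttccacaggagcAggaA
Chil4 exon 6: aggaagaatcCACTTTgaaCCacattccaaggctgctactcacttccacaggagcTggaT

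Along the whole alignment, 88 of 1540 columns differed and the longest identical run was 136. Of the 100-base windows of the Chil4 transcript, 3.75% were found letter for letter in Chil3, against 18.5% of the 50-base windows. No window of 150 bases was shared. Reads that fall wholly in an identical run cannot be assigned to either gene, so the counts of Chil3 and Chil4 were also summed.

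**Figure D1:**
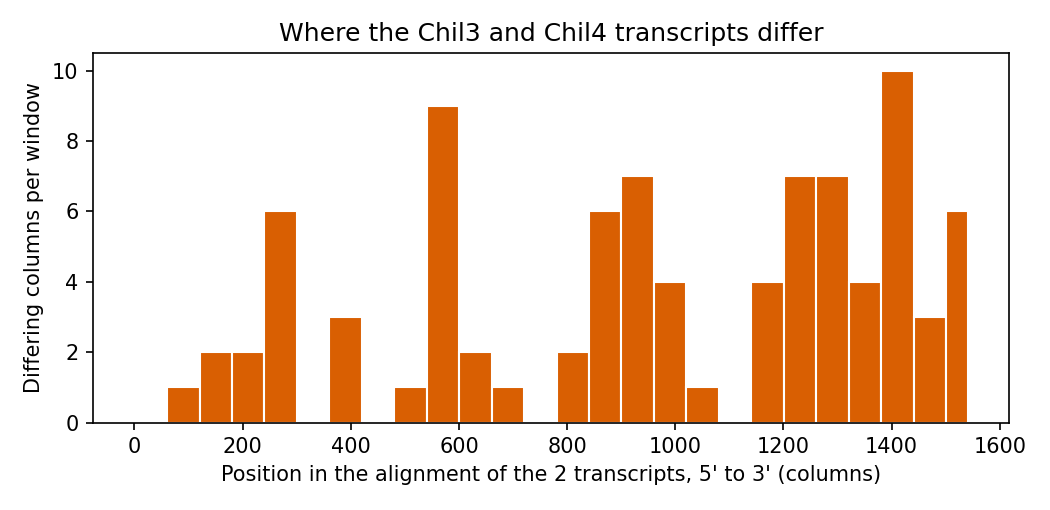
Number of differing columns in each window of 60 columns (40 in the last) along the alignment of the Chil3 and Chil4 transcripts, from the 5′ to the 3′ end. Differences are spread unevenly, from 0 in several windows to 10 in the window of columns 1381 to 1440.

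The stretches upstream of the start sites are shown to compare the genes, and any part of them in the levels was not tested. The 222 bases before the GENCODE start of each gene, chr3:106167565-106167786 for Chil3 and chr3:106219508-106219729 for Chil4, are printed from RefSeq (GRCm38.p6) on the minus strand, with the 22 aligned positions that differ between the copies in capitals, a base missing from the other copy included. For Chil1, the 250 bases before its RefSeq start, chr1:134181906-134182155 on the plus strand, are printed with letters matching an NF-kB pattern in capitals:
Chil3 upstream: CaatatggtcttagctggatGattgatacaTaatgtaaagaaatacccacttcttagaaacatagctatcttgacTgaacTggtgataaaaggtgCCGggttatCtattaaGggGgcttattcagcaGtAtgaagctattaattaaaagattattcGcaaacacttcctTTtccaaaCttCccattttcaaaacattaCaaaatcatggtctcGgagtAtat
Chil4 upstream: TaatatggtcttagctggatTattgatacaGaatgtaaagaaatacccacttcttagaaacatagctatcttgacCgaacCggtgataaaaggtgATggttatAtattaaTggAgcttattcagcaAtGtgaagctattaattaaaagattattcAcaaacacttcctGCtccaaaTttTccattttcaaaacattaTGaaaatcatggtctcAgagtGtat
Chil1 upstream: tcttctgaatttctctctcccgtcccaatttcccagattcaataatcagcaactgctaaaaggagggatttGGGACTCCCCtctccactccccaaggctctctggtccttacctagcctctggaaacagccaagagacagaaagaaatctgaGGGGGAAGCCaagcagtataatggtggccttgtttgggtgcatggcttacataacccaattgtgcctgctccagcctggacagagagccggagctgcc

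The upstream stretches of Chil3 and Chil4 were 90.1% identical, against 39.5% for Chil3 and Chil1. Letter patterns were searched on both strands in windows from 250 bases before to 50 bases after each RefSeq start, with negative positions counted back from the start. The STAT pattern TTCNNNGAA, which reads the same on both strands, was matched by TTCTTAGAA in both near-copies, from -172 to -164 in Chil3 and from -200 to -192 in Chil4, whose RefSeq start lies 28 bases downstream of its GENCODE start. It is the lower-case run ttcttagaa in the lines above, and 8.30% of the 32841 promoter windows held the pattern. TATAAA, held by 13.6% of windows, was matched from -31 to -26 in Chil4 and across the annotated start, from -3 to 3, in Chil3. Both matches lie at the same place relative to the GENCODE starts, so their positions differ only through the RefSeq start of Chil4. The C/EBP pattern TTGCNNAA was matched on the minus strand of Chil4 alone among the 4 genes, from -131 to -124 (TTCAGCAA on the printed strand), and stood in 10.8% of windows. The NF-kB pattern GGGNNNNNCC had 2 separate matches before Chil1, GGGACTCCCC and GGGGGAAGCC, but it was held by 50.8% of all windows, and Chil3 and each of the 3 Chid1 starts held it too. Neither the longer STAT6 spacing TTCNNNNGAA (6.95% of windows) nor the PU.1 core GAGGAA (28.3%) was matched in any window of the 4 genes, and a match or its absence is a property of these letters only.

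Chil3, Chil4 and Chil1 were far lower in the livers of the Rk2 group, and Chid1 was slightly higher. In mean CPM (counts per 1000000, scaled by trimmed mean of M values), Chil3 was 20.6-fold lower and Chil1 8.09-fold lower, while Chid1 was 1.26-fold higher. Over all 12411 genes tested, 11.4% were lower and 3.17% higher under limits of 0.05 on the adjusted p and 2 on the fold. By the adjusted p alone, 23.7% were lower and 20.3% higher. These shares are background only, since the 4 genes were chosen on this contrast and no call is made for them. The median log2 fold change of all genes was -0.0076.

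Chil3 was the most abundant member after I/R. It had 987, 1096 and 1184 counts in I/R replicates 1 to 3 and 98, 47 and 22 in I/R+Rk2 replicates 1 to 3, which is 51.5, 42.8 and 47.2 CPM against 4.12, 1.39 and 1.35 CPM. The I/R livers lay close together, with a coefficient of variation of 9.21%, whereas the I/R+Rk2 livers varied by 69.4% of their mean. The lowest I/R liver was still 10.4-fold above the highest I/R+Rk2 liver. Group means were 47.1 ± 4.34 and 2.29 ± 1.59 CPM (SD, n = 3), and the log2 fold change came to -4.36 (SE 0.40). Among the genes tested, Chil3 moved from the 81.8th percentile of mean CPM in I/R to the 19.8th in I/R+Rk2. This rank is not scaled to gene length, so it is not a rank of abundance. I/R+Rk2 replicate 1 kept the most Chil3 of its group, and without it the log2 fold change was -5.10.

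Chil4, the near-copy, was scarce in every library. The vehicle group held 66, 65 and 59 counts and the Rk2 group 3, 1 and 3, or 3.44, 2.54 and 2.35 against 0.126, 0.0296 and 0.184 CPM. The groups did not overlap, but the Rk2 values rest on 7 counts in all. At 190 against 7 counts, the ratio per scaled library size was 28.7, with an exact 95% interval from 13.7 to 72.3 that covers counting error only. The ratio of the mean FPKM was 50.02. The fitted log2 fold change was -4.74 (SE 0.49), a value that depends on the fit's prior count at this depth, and it was -4.14 without I/R+Rk2 replicate 2. In FPKM (fragments per kilobase of transcript and 1000000 mapped fragments), Chil4 was listed at 2.34, 1.54 and 1.44 in I/R and at 0.0390, 0.0111 and 0.0561 in I/R+Rk2. The count and FPKM tables differed most for these low values. How the whole-number counts were made is not given in the sources used here, and the 7 counts may be too high if estimates were rounded up. The length that the 2 tables together imply for Chil4 was 1652 to 1684 bases with vehicle and 2524 to 3153 bases with Rk2. At the mean length implied by the I/R livers, the Rk2 FPKM values would stand for 1.59, 0.663 and 1.67 reads, 3.93 in all, a scaling added after the values were seen.

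The split between the near-copies could be compared only within the counting error of the scarce Chil4. Chil4 made up 5.50% of the summed Chil3 and Chil4 counts in I/R (190 of 3457, Wilson 95% interval 4.78 to 6.31%) and 4.02% in I/R+Rk2 (7 of 174, 1.96 to 8.07%), and the doubt about the 7 counts holds for this share too. Per liver the share was 6.27, 5.60 and 4.75% in I/R and 2.97, 2.08 and 12.0% in I/R+Rk2, so the values overlapped. Summed into 1 row before the fit, Chil3 and Chil4 stood at 49.9 ± 4.81 CPM with vehicle and 2.40 ± 1.60 CPM with Rk2 (SD, n = 3), and the fitted log2 fold change was -4.37 (SE 0.39). Without I/R+Rk2 replicate 1 it was -5.09. Since Chil4 is so small a part of the sum, this value lies close to that of Chil3 by construction.

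Chil1 followed the same direction with more spread among the I/R livers. It had 235, 235 and 411 counts in I/R and 69, 33 and 13 in I/R+Rk2, which is 12.3, 9.17 and 16.4 CPM against 2.90, 0.977 and 0.798 CPM. I/R replicate 3 was the highest liver and I/R+Rk2 replicate 3 the lowest, and the lowest I/R liver was 3.16-fold above the highest I/R+Rk2 liver. Means were 12.6 ± 3.62 and 1.56 ± 1.17 CPM (SD, n = 3), with a log2 fold change of -2.999 (SE 0.47). As with Chil3, I/R+Rk2 replicate 1 was the highest treated liver, and the log2 fold change was -3.80 without it.

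Chid1 did not follow the other members. Its counts were 436, 645 and 518 in I/R and 624, 915 and 540 in I/R+Rk2. Scaled to CPM, these were 22.7, 25.2 and 20.7 against 26.2, 27.1 and 33.2, so the groups did not overlap but lay only 1.04-fold apart. Means were 22.9 ± 2.26 and 28.8 ± 3.78 CPM (SD, n = 3). The log2 fold change was small, at 0.33 (SE 0.13), and it was 0.17 when libraries were scaled by their size alone. The scaling factors differed by group, from 1.013 to 1.142 in I/R and from 0.914 to 0.9755 in I/R+Rk2. Since the strand setting of the counting is not given in the sources used here, reads of Tspan4 over the shared bases cannot be told apart from those of Chid1. In FPKM the groups overlapped, at 5.89, 9.09 and 5.25 in I/R and 8.41, 8.14 and 10.5 in I/R+Rk2. Groups without overlap in CPM were common in these data, with 30.3% of genes tested lower and 27.1% higher in every I/R+Rk2 liver than in every I/R liver.

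**Figure D2:**
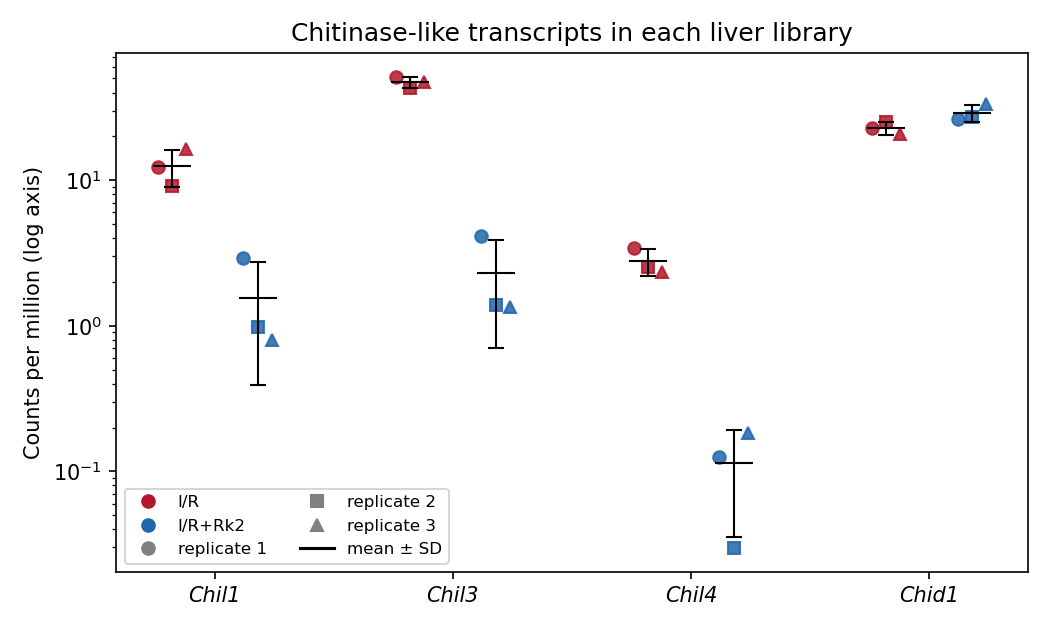
CPM of the 4 genes in each library on a log axis, with red points for I/R, blue points for I/R+Rk2, symbols for the replicate number, and black marks for the mean ± SD (n = 3). Chil1, Chil3 and Chil4 lie lower in all 3 I/R+Rk2 libraries than in any I/R library, and Chid1 lies slightly higher.

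Levels of different genes can be compared only per length, so the make-up of the family was taken from FPKM. The length implied by counts and FPKM varied between libraries for the other members too. It ran from 997 to 1680 bases for Chil3, 1312 to 1953 for Chil1 and 2831 to 4407 for Chid1, which limits the shares below. In I/R the order of mean FPKM was Chil3 at 34.2 ± 4.88, Chil1 at 8.96 ± 3.72, Chid1 at 6.74 ± 2.06 and Chil4 at 1.77 ± 0.490 (SD, n = 3). Chil1 and Chid1 overlapped across the I/R livers, so their order is not larger than their spread. In I/R+Rk2 the order was Chid1 at 9.01 ± 1.27, Chil3 at 1.93 ± 1.59, Chil1 at 0.883 ± 0.656 and Chil4 at 0.0354 ± 0.0227 (SD, n = 3), with Chil3 and Chil1 overlapping. Of the summed FPKM of the 4 genes, Chil3 held 66.1 ± 3.06% with vehicle and 15.5 ± 10.6% with Rk2 (SD, n = 3), and without I/R+Rk2 replicate 1 its share with Rk2 was 9.69%. The share of Chid1 went from 13.4 ± 5.70% to 77.1 ± 14.8%, and no I/R liver reached the 60.9% of the lowest I/R+Rk2 liver. Chil1 held 17.1 ± 6.27% and then 7.13 ± 4.31%, with overlap between the groups, from 11.4 to 23.8% in I/R and from 3.21 to 11.7% in I/R+Rk2.

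**Figure D3:**
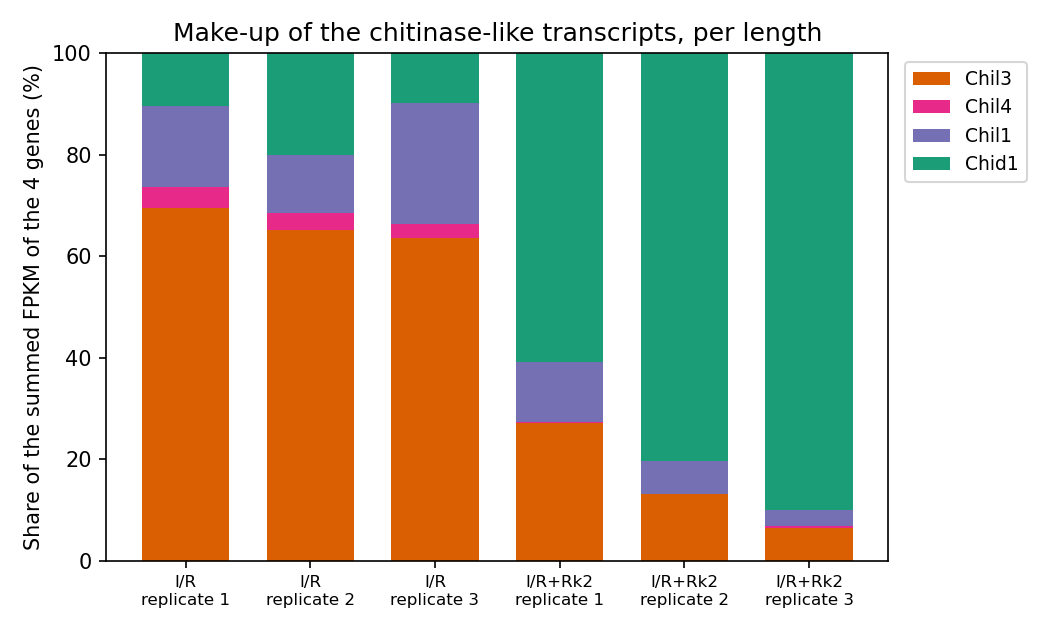
Share of each gene in the summed FPKM of Chil1, Chil3, Chil4 and Chid1 (%), stacked to 100% for each of the 6 libraries. Chil3 is the largest part of each I/R bar, from 63.5 to 69.5%, and Chid1 of each I/R+Rk2 bar, from 60.9 to 90.0%.

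Most neutrophil and monocyte markers were lower in the same livers, while most Kupffer cell and neutrophil precursor markers did not pass or were not tested. In bulk tissue, fewer cells of a type and less RNA per cell cannot be told apart. As background for each marker list, 23.7% of all genes tested were lower and 20.3% higher by the adjusted p alone. Of 10 neutrophil markers, 9 fell and Retnlg did not pass (log2 fold change -1.09, adjusted p = 0.0620). All 10 fell with library size alone, DESeq2, the replicate block, limma on filtered FPKM or without I/R+Rk2 replicate 1. Leaving out another library gave 8 or 9. In the main fit the median log2 fold change of the 10 markers was -2.11. Their summed level was 576 to 696 CPM in I/R and 108 to 249 CPM in I/R+Rk2. I/R+Rk2 replicate 1 was the highest treated liver here too. The 4 most abundant were S100a9 (-2.04, adjusted p = 0.00146) and S100a8 (-2.03, adjusted p = 0.00425), which form calprotectin, the G-CSF receptor gene Csf3r (-2.19, adjusted p = 0.00101) and the decoy receptor gene Il1r2 (-1.62, adjusted p = 0.00374). Chil3 amounted to 7.28 ± 0.434% of the summed neutrophil markers in I/R and 1.31 ± 0.317% in I/R+Rk2, and Chil1 to 1.92 ± 0.392% and 0.877 ± 0.250% (SD, n = 3, ratios of CPM), with no overlap for either gene. The part of these cells in the change of Chil3 and Chil1 was not tested.

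Of 12 monocyte markers, 11 fell, with a median log2 fold change of -2.05, and Nr4a1 did not pass (0.21, adjusted p = 0.240). F13a1, the factor XIII A chain gene, fell by 5.15 on the log2 scale (adjusted p = 0.000215) and Fn1 (fibronectin), which hepatocytes also express strongly, by 0.49 (adjusted p = 0.0116). Summed monocyte markers were at 1627 to 1931 CPM in I/R and 1156 to 1216 CPM in I/R+Rk2, and Fn1 alone supplied 86.5 to 96.5% of these sums. The other 11 markers, summed without Fn1 after its share was seen, were at 187 to 224 CPM in I/R and 40.7 to 42.5 CPM in I/R+Rk2. Nr4a1 alone supplied 22.6, 28.7 and 24.7 CPM of the 42.5, 42.0 and 40.7 CPM in I/R+Rk2 replicates 1 to 3. In I/R replicates 1 to 3 it was at 20.3, 25.0 and 20.7 CPM. The sum without Fn1 thus depends strongly on a marker that did not pass. Of the 11 markers, Ccr2 (-4.41, adjusted p = 0.000131), Ms4a6c (-4.33, adjusted p = 0.000212) and Vcan (-5.61, adjusted p = 0.000212) had log2 fold changes near or beyond that of Chil3. They were singled out after their values were seen. Of 11 Kupffer cell markers, 1 fell and 10 did not pass, but scaling by library size alone gave 6 that fell and limma on filtered FPKM gave 3. Leaving out I/R replicate 2 gave 4, and I/R+Rk2 replicate 1 when left out gave 3. Their sums overlapped, at 146 to 202 CPM in I/R and 126 to 159 CPM in I/R+Rk2. Chil3 amounted to 27.2 ± 3.30% of the Kupffer cell sum in I/R and 1.57 ± 0.883% in I/R+Rk2 (SD, n = 3). Most granule genes of neutrophil precursors had few counts or no count row. Camp, Mpo, Ctsg and Fcnb had no row in the count table. Of the 4 precursor genes tested, Lcn2 fell (633 ± 167 to 48.8 ± 11.9 CPM, log2 fold change -3.70, adjusted p = 0.000240), Cebpe rose (1.08, adjusted p = 0.00804), and Ngp (-0.32, adjusted p = 0.576) and Prtn3 (-1.24, adjusted p = 0.106) did not pass. Ngp passed without I/R+Rk2 replicate 1 (-1.02, adjusted p = 0.0222), and Prtn3 passed without I/R replicate 2 (adjusted p = 0.0303). Lcn2 is also made by hepatocytes in the acute phase. Chil3 amounted to 7.69 ± 2.02% of the summed precursor genes, mostly Lcn2, in I/R and 3.85 ± 1.79% in I/R+Rk2 (SD, n = 3). Chil1 amounted to 2.14 ± 1.16% and 2.61 ± 1.37% of that sum (SD, n = 3), and its groups overlapped.

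**Figure D4:**
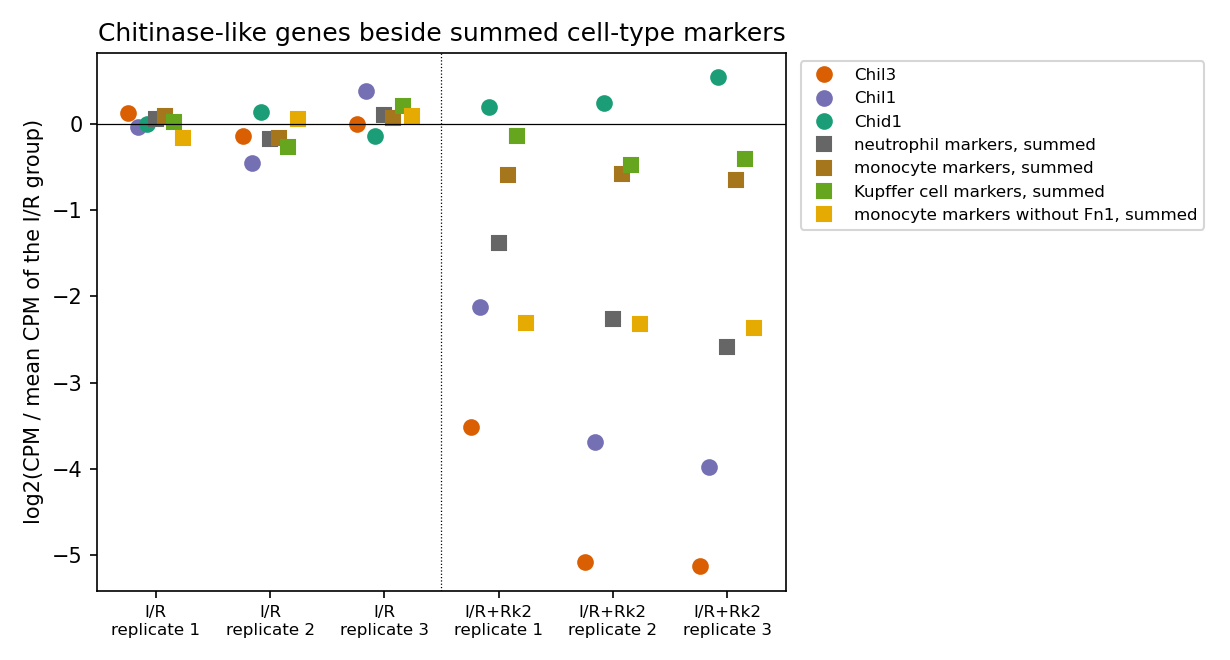
Log2 ratio of each library's CPM to the mean of the I/R group, for Chil3, Chil1 and Chid1 (circles) and for the summed CPM of neutrophil, monocyte (with and without Fn1) and Kupffer cell markers (squares). In all 3 I/R+Rk2 libraries Chil3 is the lowest and Chid1 is above 0. There the monocyte sum without Fn1 lies between -2.37 and -2.31, under the full monocyte sum. In I/R+Rk2 replicate 1 it is also under Chil1. Nr4a1, which did not pass, supplies 22.6 to 28.7 CPM of the sum without Fn1 in I/R+Rk2.

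The remaining marker lists describe the tissue around these genes. All 9 hepatocyte markers were tested, with summed levels of 71268 to 82170 CPM in I/R and 100329 to 124202 CPM in I/R+Rk2, and 4 rose while 1 fell. Eosinophil and mast cell markers with counts were near 0 apart from Kit (summed 4.80 to 6.52 CPM in I/R and 2.15 to 3.32 CPM in I/R+Rk2). Epx and Mcpt4 had no row in the count table. Kit fell (log2 fold change -0.77, adjusted p = 0.0261). Of the T and NK cell markers, 1 of 7 was tested and did not pass, and 0 of the 4 B cell markers were tested. Among 6 stellate cell markers 1 fell, among 6 endothelial markers 3 fell and 2 rose, and among 5 cholangiocyte markers 2 fell. Such counts stand beside 23.7% lower and 20.3% higher among all genes tested, and are not read as a change of a cell type.

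Most of the other GH18 genes had no count row or few counts. The acidic chitinase gene Chia1, the chitotriosidase gene Chit1, and Chil5 and Chil6 had no row in the count table. They had a row in the FPKM table, but their FPKM was not analysed here, so no level is given. The same holds for the other genes said here to have no row in the count table. Ovgp1 (oviductin) was under the filter. Only Ctbs, which encodes a lysosomal chitobiase, was tested among the 6, at 7.48 ± 0.196 CPM with vehicle and 6.91 ± 0.200 CPM with Rk2 (SD, n = 3), and it did not pass (log2 fold change -0.11, adjusted p = 0.441).

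Genes for known binding partners of Chil1 and Chid1 moved unequally. Of 8 such genes, 5 were tested, 2 fell and 3 did not pass, with a median log2 fold change of -0.41. Among all genes tested, 23.7% were lower by the adjusted p alone. Lgals3, which encodes galectin-3, went from 25.4 ± 1.69 to 3.58 ± 1.35 CPM (SD, n = 3, log2 fold change -2.82, adjusted p = 0.000457). Cd44, the hyaluronan receptor, went from 51.7 ± 20.3 to 9.78 ± 2.82 CPM (SD, n = 3, log2 fold change -2.40, adjusted p = 0.00224), with I/R replicate 2 the lowest of its group at 28.7 CPM. Sdc1 (syndecan-1) stood at a log2 fold change of -0.41 (adjusted p = 0.0595) and passed in 7 of 16 alternatives, among them DESeq2 (adjusted p = 0.0451), library size alone (0.0218), the 3 limma fits on FPKM (0.0174 to 0.0387) and the fit without I/R+Rk2 replicate 1 (-0.50, adjusted p = 0.0497). Tmem219, a receptor for Chil1, was at 0.24 (adjusted p = 0.217), and Stab1, which encodes the Chid1 partner stabilin-1, was at 0.16 (adjusted p = 0.252), or -0.004 with library size alone. The Chil1 receptor gene Il13ra2, Ptgdr2 and Ager were under the filter.

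The type 2 cytokine axis, through which Chil3 and Chil4 are classically induced, was represented by its receptors and by Il33. Il4, Il5, Il13 and Il25 had no row in the count table, and Tslp and the IL-33 receptor gene Il1rl1 were under the filter. All 6 genes tested, of 12 in the list, fell, against 23.7% of all genes tested, and their median log2 fold change was -0.88. The alarmin gene Il33 was at 50.4, 37.9 and 51.3 CPM in I/R and 3.99, 2.16 and 2.52 CPM in I/R+Rk2 (log2 fold change -4.01, SE 0.25, adjusted p = 0.000240). The receptor chain genes Il2rg (-1.41, adjusted p = 0.00431), Il13ra1 (-1.02, adjusted p = 0.000325) and Il4ra (-0.75, adjusted p = 0.00356) fell by less. Jak1 (-0.44, adjusted p = 0.0156) and Stat6 (-0.34, adjusted p = 0.0169), the kinase and the transcription factor downstream, fell least. The call for Jak1 was lost without I/R replicate 3 (adjusted p = 0.0503), and that for Stat6 without I/R replicate 2 (0.0525), I/R replicate 3 (0.0653) or I/R+Rk2 replicate 2 (0.0692), in adjusted p.

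Other genes of alternative macrophage activation, for which Chil3 commonly serves as a marker, were mixed. Of 14 genes, 7 were tested, 4 fell, 1 rose and 2 did not pass, with a median log2 fold change of -1.38. Among all genes tested, 23.7% were lower and 20.3% higher by the adjusted p alone. Retnla, the usual companion marker of Chil3, had no row in the count table, and Clec7a was not analysed here. Arg1, also a urea cycle enzyme of hepatocytes, was at 1072 ± 69.8 CPM with vehicle and 1461 ± 239 CPM with Rk2 (SD, n = 3, log2 fold change 0.45, adjusted p = 0.0330). Its call held in 7 of 16 alternatives and was lost without any single library except I/R+Rk2 replicate 1, with an adjusted p from 0.0521 without I/R+Rk2 replicate 3, through 0.0598, 0.0810 and 0.0879 without I/R replicates 2, 3 and 1, to 0.0908 without I/R+Rk2 replicate 2. The mannose receptor gene Mrc1 did not pass (0.42, adjusted p = 0.0637), though it did in 3 of 16 alternatives. These were upper-quartile scaling, DESeq2 and the fit without I/R replicate 3 (adjusted p = 0.0494), and the lowest adjusted p was 0.0411.

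Egr2, a transcription factor gene, fell from 7.46 ± 0.769 to 2.41 ± 0.0741 CPM (SD, n = 3, log2 fold change -1.63, adjusted p = 0.000549). The haptoglobin-haemoglobin receptor gene Cd163 fell from 4.04 ± 0.584 to 1.53 ± 0.300 CPM (SD, n = 3, log2 fold change -1.38, adjusted p = 0.00357). The chemokine gene Ccl22 fell (-2.42, adjusted p = 0.0161) at under 1 CPM in every library, with the call lost without I/R replicate 1 (0.0584) or I/R+Rk2 replicate 2 (0.0503), in adjusted p. Ccl24, an eosinophil chemokine gene, was at -1.55 (adjusted p = 0.0520), with 4.27 CPM in I/R replicate 3 against 1.51 and 1.09 CPM in I/R replicates 1 and 2. It stood at -0.72 without I/R replicate 3 (adjusted p = 0.161) and passed without I/R replicate 2 (-1.89, adjusted p = 0.0263). Its adjusted p lay between 0.0223 and 0.161 in the 16 alternatives. Pparg, a nuclear receptor gene, fell (-0.49, adjusted p = 0.0354), but not when I/R replicate 1 (0.0954), 2 (0.0816) or 3 (0.0714) or I/R+Rk2 replicate 2 (0.0616) or 3 (0.0757) was left out, in adjusted p. Leaving out I/R replicate 1 or I/R+Rk2 replicate 2 lowered the count of genes that fell from 4 to 2.

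**Figure D5:**
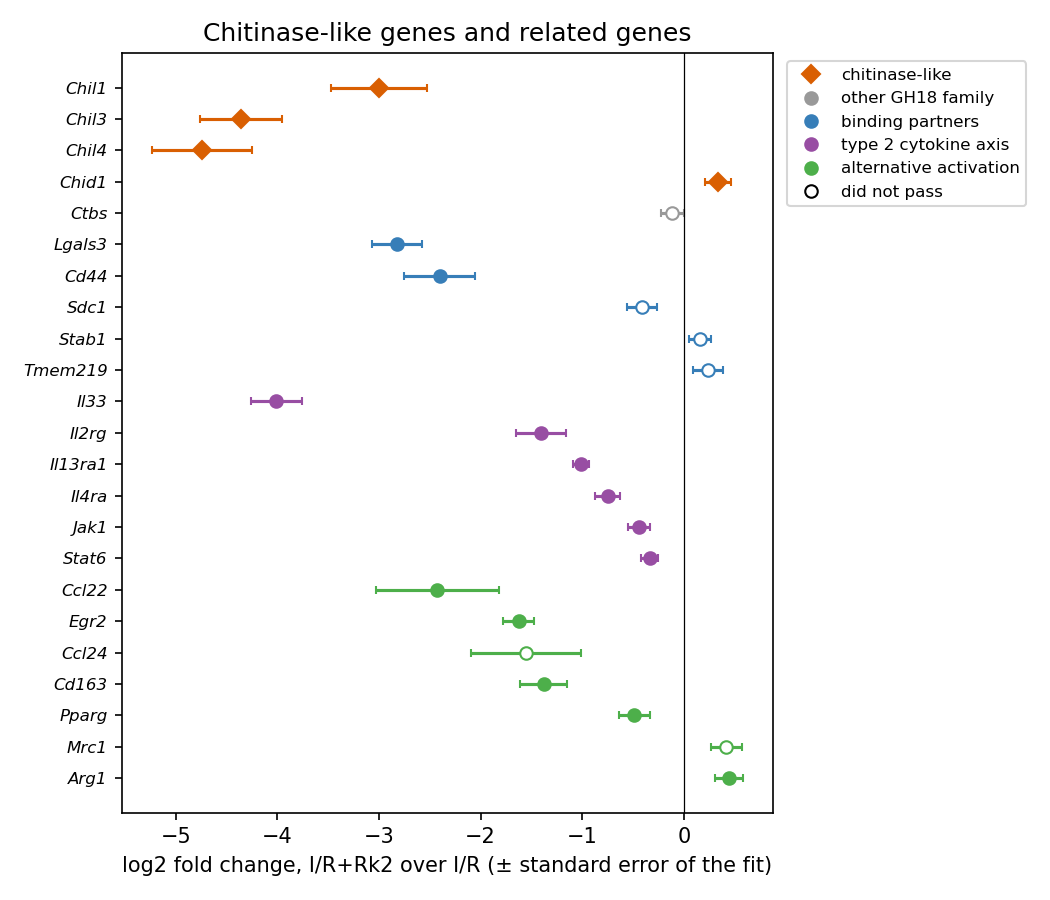
Log2 fold change of I/R+Rk2 over I/R with the standard error of the fit, for the 4 chitinase-like genes (diamonds, no test) and for the tested genes of 4 related lists (circles, filled where the adjusted p was below 0.05). Chil4 and Chil3 lie furthest to the left, and Il33 at -4.01 comes next. Arg1, Mrc1, Chid1, Tmem219 and Stab1 lie to the right of 0.

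The genes whose levels ran most like each member over the 6 libraries were found by the root mean square difference of log2(CPM + 1), each gene centred on its own mean, among 9529 genes with a mean of at least 100 counts in their higher group. For Chil1 these were Nckap1l, Cd53, C5ar1, Nlrp3 and Slfn1, with differences from 0.131 to 0.171, against a median of 1.32 over all candidates. C5ar1, the receptor gene for complement C5a, went from 32.7 ± 5.77 to 4.44 ± 1.98 CPM, and the inflammasome sensor gene Nlrp3 from 13.2 ± 3.78 to 1.54 ± 0.752 CPM (SD, n = 3).

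For Chil3 they included Il33, Lcn2, Saa2 and Vcan, from 0.265 to 0.354 against a median of 2.04. Saa2, an acute phase protein gene, went from 1680 ± 284 to 169 ± 65.1 CPM (SD, n = 3). For Chil4 they were Itgb3, Nabp1, Tnfrsf23, Haus8 and Slc39a10, from 0.0528 to 0.0965 against a median of 0.915, a measure in which the added 1 shrinks the differences of so scarce a gene. For Chid1 they were Gnpat, Gtpbp3, Stk25, Dhrs11 and Smpd1, from 0.0456 to 0.0635 against a median of 0.299. Smpd1, the acid sphingomyelinase gene of the lysosome, went from 35.6 ± 2.84 to 43.3 ± 2.55 CPM (SD, n = 3). No gene stood among the 5 of more than 1 member.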

How the data were processed

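Liver libraries were made from 250 ng of RNA each with an MGI kit. Per the submitters' processing notes, the authors used FastQC 0.11.5, HISAT2 2.2.1 and StringTie 1.3.3 on mm10, and the annotation and strand setting were not given in the sources used here. They deposited whole-number counts per gene and FPKM, and the sources used here do not say how the counts were drawn. In 21 count rows the name had turned into a date. Counts were analysed with edgeR 4.0.16 in R 4.3.3 (filterByExpr, TMM, quasi-likelihood F test, I/R+Rk2 against I/R, Benjamini-Hochberg over all 12411 genes tested). The method was run on simulated counts only with the dispersions edgeR itself fitted, which cannot show how it does where that model fails. A gene that did not pass may still have changed. Alternatives were other scalings and filters, DESeq2 1.42.0, limma 3.58.1 on log2(FPKM + 1) or log2(FPKM + 0.1), a replicate block and leaving out each library. Sequences were aligned globally with Biopython 1.88. At these depths, 3 counts stand for 0.0888 to 0.184 CPM. Library pairs of a group differed by 31.4 to 74.8 chi-square per degree of freedom, so each counted as 1 replicate. The labels number the liver samples without naming animals, so p-values measure only the spread between these samples, which may be technical.

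The members and lists were chosen with earlier results of these data known. Named genes were all members, up to 8 of each related list and 4 of each leukocyte list by highest mean CPM, and the 5 nearest patterns of each member. Some genes that this rule selects are left out of the text, though they stayed in each test and count.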

Additional observations from a re-analysis of the deposited data

How the results depend on the processing

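Chil1, Chil3, Chil4 and their sum stayed lower, and Chid1 higher, in I/R+Rk2 in every alternative that gave a value. Chil4 had no value where 10 counts in every library or a mean FPKM of 1 was required. With limma on log2(FPKM + 1), with or without the filter, the log2 fold change was -2.39 for Chil1, -3.71 for Chil3 and -3.76 for Chil3 plus Chil4, and -1.41 for Chil4 without the filter, since the added 1 compresses low values. Library size alone gave 0.17 for Chid1 and moved the median of all genes to -0.17. Leaving out each library in turn gave -3.80 to -2.70 for Chil1, -5.10 to -4.04 for Chil3, -5.19 to -4.14 for Chil4, 0.23 to 0.41 for Chid1 and -5.09 to -4.05 for Chil3 plus Chil4. As a share of counts in place of FPKM, Chil3 held 55.2% and Chid1 26.9% in I/R, because lengths then count, and 6.96% and 88.0% in I/R+Rk2.

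The replicate numbers did not pair the livers (correlations of deviations -0.031, 0.048 and -0.024 for numbers 1, 2 and 3). With the replicate block, log2 fold changes were -3.08 for Chil1, -4.49 for Chil3, -4.74 for Chil4, 0.33 for Chid1 and -4.50 for Chil3 plus Chil4, and genes called lower and higher numbered 2595 and 2118, against 2938 and 2516.

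Over all genes, those lower with a fold above 2 numbered 1420, but 808 with limma on log2(FPKM + 1) and 839 without its filter. Those higher with a fold above 2 numbered 393, but 246 with library size alone, 93 and 82 with log2(FPKM + 1) with and without the filter, and 154 with log2(FPKM + 0.1). Genes higher by adjusted p alone numbered 2516, but 1320, 1172, 1124 and 1148 in those settings in turn, and 1640 to 2401 with each library left out. For alternative activation, 2 genes fell with limma on either filtered FPKM scale, and 2 to 4 with a library left out. There 2 rose with upper-quartile scaling and with DESeq2, 0 with library size alone or limma, and 0 to 1 with a library left out. Stab1 was reversed, to -0.0043, with library size alone. The causes were not tested where none is given.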
